A study of Homo sapiens with 30 samples.

Results

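Keratin genes were read in 5637 cells, an established human bladder carcinoma line, after knockout of RBPMS, overexpression of ANKRD10 transcripts and knockdown of ANKRD10 transcripts. Members were all gene symbols made of KRT and a number, with a closing letter A to C allowed and with keratin-associated protein genes, pseudogenes and antisense genes left out. The rule gave 55 genes, and all 55 were present in each of the 3 count tables, among 60612 gene rows in the knockout table and 56303 in each of the other tables. They comprised 29 type I and 26 type II keratins, 28 of them on chromosome 17 and 27 on chromosome 12. Sorted by where each is known to be made, 4 were basal keratins (KRT5, KRT14, KRT15 and KRT17) and 5 were luminal keratins (KRT7, KRT8, KRT18, KRT19 and KRT20). Another 4 were the squamous and stress keratins KRT6A, KRT6B, KRT6C and KRT16, 14 were keratins of suprabasal and other differentiated epithelia, 17 were hair keratins, 9 belonged to the hair root sheath, and KRT23 and KRT222 were kept apart.

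Keratins are the intermediate filament proteins of epithelia, and each filament is built from pairs of an acidic type I and a basic type II chain. KRT5 with KRT14 marks the basal layer of stratified epithelia and urothelium, KRT8 with KRT18 and KRT19 marks simple and luminal epithelium, and KRT20 marks the umbrella cells that face the bladder lumen. Bladder carcinomas are commonly sorted into basal and luminal types by these genes, KRT6 and KRT16 keratins accompany squamous differentiation and wounding, and hair keratins form the hard filaments of hair and nail.

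The knockout experiment had 4 groups of 3 libraries, WT1, KO1, WT2 and KO2, with the genotype labels WT and RBPMS-KO. RBPMS encodes an RNA-binding protein that acts in splicing. The study's text states that the knockout populations were expanded from single clones and made with different guide RNAs, so each knockout is 1 clonal line. The overexpression experiment had 3 libraries each of cells with vector only (Vector), ANKRD10-1 overexpression and ANKRD10-2 overexpression, where ANKRD10-1 and ANKRD10-2 are transcripts of the ankyrin repeat gene ANKRD10. The knockdown experiment had 3 libraries each of cells given the control siRNA (siNC), siANKRD10-1 or siANKRD10-2. The labels of these last 6 groups name 5637 cells only, whereas the study's text places ANKRD10-1 overexpression and ANKRD10-2 knockdown in RBPMS knockout cells, so the RBPMS background of these groups is not settled here. Separate cultures are not stated for libraries of 1 group, so p-values measure the spread between libraries, which may be technical. These are bulk libraries, in which fewer cells making a keratin and less of its RNA per cell cannot be told apart.

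Library totals ran from 44593108 to 69723937 counts in the knockout table, from 31736779 to 47493499 in the overexpression table and from 28511029 to 32784584 in the knockdown table. RBPMS fell from 40.41 ± 1.66 CPM (reads of a gene scaled to the library size, mean ± SD, n = 3 libraries here and below) in WT1 to 14.88 ± 0.505 in KO1, and from 43.12 ± 0.937 in WT2 to 20.32 ± 1.23 in KO2. ANKRD10 was 148.9 ± 0.441 CPM in Vector, 237.3 ± 4.64 with ANKRD10-1 and 197 ± 11.4 with ANKRD10-2, and 56.44 ± 2.4 in siNC, 47.65 ± 2.16 with siANKRD10-1 and 47.42 ± 0.841 with siANKRD10-2. In KO1 and in KO2, ANKRD10 was called lower by edgeR (adjusted p under 0.05), as RBPMS was, where 18.2% and 19.2% of all genes tested were. Counts per gene do not separate the transcripts of ANKRD10. Epithelial markers were present throughout, with group means of 123.4 to 306.1 CPM for EPCAM and 80.12 to 236 CPM for CDH1. Of 12 markers of blood, vessel, fibroblast and muscle cells, CD3E was at 0 in every library of the knockout and knockdown tables and PTPRC in every library of the knockout table, and COL1A1 was the highest, with group means of 27.58 to 50.65 CPM. Tables were normalised separately, so levels set across them are descriptions, and tests were run only within a table.

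Keratin genes lie in a cluster on each of the 2 chromosomes, and most of those with a start-site sequence at hand share a promoter feature. RefSeq promoter sequences of GRCh38.p14 matched 34 of the 55 keratins. The letters TATAA or ATAAA, on either strand, occurred 40 to 15 bases before the start in 30 of these 34, against 8.3% of 35116 promoters. By class, the box was found in 1 of 1 basal, 1 of 2 luminal, 9 of 9 suprabasal, 13 of 14 hair and 6 of 8 root sheath keratins that had an entry. TATAAA anywhere from 250 bases before to 50 bases after the start was found in 20 of 34 against 11.5% of all promoters, CACGTG in 1 of 34 against 7.26%, and TGANTCA in 0 of 34 against 7.71%. TATAAA matches contain both box letters, so these counts overlap. Shown are the 250 bases before the start of a basal keratin expressed in all groups, a suprabasal keratin that fell in both knockouts and a hair keratin at or near 0 in all groups, each 5′ to 3′ with the box in capitals.
KRT5: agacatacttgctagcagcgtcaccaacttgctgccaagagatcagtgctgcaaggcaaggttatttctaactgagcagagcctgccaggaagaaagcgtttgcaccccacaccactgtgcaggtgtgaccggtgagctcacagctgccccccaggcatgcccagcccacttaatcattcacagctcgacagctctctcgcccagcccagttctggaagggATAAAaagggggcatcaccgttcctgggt
KRT4: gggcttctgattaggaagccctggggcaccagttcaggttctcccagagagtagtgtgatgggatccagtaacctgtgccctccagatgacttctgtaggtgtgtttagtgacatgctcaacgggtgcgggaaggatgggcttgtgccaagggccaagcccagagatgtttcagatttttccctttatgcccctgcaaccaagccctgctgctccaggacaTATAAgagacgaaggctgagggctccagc
KRT85: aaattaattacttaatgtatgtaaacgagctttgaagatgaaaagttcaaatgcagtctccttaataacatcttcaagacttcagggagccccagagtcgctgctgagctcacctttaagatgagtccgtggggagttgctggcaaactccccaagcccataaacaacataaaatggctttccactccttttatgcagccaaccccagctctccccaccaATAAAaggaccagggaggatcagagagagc
These windows are chr12:52520395-52520644, chr12:52814117-52814366 and chr12:52367482-52367731, all on the minus strand. The box begins 29 bases before the start in KRT5 and KRT4 and 30 bases before it in KRT85. The match is a count of letters, and the basal, suprabasal and hair examples carry it alike although their RNA levels are far apart.

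At least 1 CPM in some group was reached by 18 keratins in the knockout table, 16 in the overexpression table and 18 in the knockdown table. Another 19, 2 and 4 keratins had 0 counts in every library of these tables, and the remaining 18, 37 and 33 had counts below 1 CPM. The knockout table, the deepest, came with gene identifiers and without gene lengths, unlike the others. Whether all tables were counted alike is not known, so their numbers of keratins at 0 cannot be compared. By counting error alone, a count of 0 leaves room for up to 3 counts, or 0.047 to 0.0996 CPM over the groups. Luminal and basal keratins made up nearly all keratin RNA. Luminal keratins took 68.2% ± 0.058 of the summed keratin CPM in WT1, 69.8% ± 0.1 in WT2, 63.6% ± 1.3 in Vector and 61.5% ± 0.15 in siNC. Basal keratins took 25.2% ± 0.058, 23.2% ± 0.15, 31.7% ± 1.4 and 32.4% ± 0.21 in the same groups. These shares are not scaled to gene length, and such scaling brings the classes closer. In siNC replicate 1 the luminal and basal sums were 4015 and 2100 CPM, but 1013 and 680 CPM per kb.

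Per kilobase of gene length, 6 keratins led in every control group: KRT5, KRT7, KRT8, KRT17, KRT18 and KRT19. In WT1 the order of CPM per kb was KRT19 at 464.6 ± 3.42, KRT5 at 162.5 ± 0.324, KRT7 at 144.2 ± 6.28, KRT17 at 123.4 ± 3.38, KRT8 at 111.1 ± 0.53 and KRT18 at 107.1 ± 0.353, with no overlap between libraries of neighbouring genes. WT2 had KRT19 at 475.8 ± 23.1, KRT5 at 150.2 ± 4.29, KRT7 at 140.8 ± 4.26 and KRT8 at 110.9 ± 2.16 CPM per kb. KRT18 at 102.1 ± 3.18 and KRT17 at 99.61 ± 5.82 CPM per kb followed in WT2, and the libraries of these last genes overlapped.

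In Vector cells KRT19 at 391.9 ± 7.66 and KRT17 at 342.9 ± 12.5 CPM per kb stood above the rest. KRT8 at 95.67 ± 4.2, KRT18 at 94.32 ± 3.91 and KRT7 at 90.47 ± 10.6 CPM per kb overlapped one another in Vector, and KRT5 was at 49.23 ± 1.2. The order in siNC was KRT17 at 491.8 ± 22.3, KRT19 at 431.3 ± 12.8, KRT8 at 267.4 ± 6.73, KRT5 at 208.2 ± 4.2, KRT7 at 194.3 ± 7.33 and KRT18 at 150.5 ± 7.51 CPM per kb, without overlap between neighbours. Per kilobase, KRT19, a type I keratin with no tail domain, was thus first in the controls of the knockout and overexpression tables, and KRT17 in siNC. The order depends on the annotated exon length used, 6881 bases for KRT8 and 2336 for KRT19, which need not be that of the transcripts made. Lengths given with the overexpression table were used for WT1 and WT2 too, as the knockout table gives none. By CPM alone KRT8 was the highest keratin in siNC, at 1808, 1818 and 1893, beside 1196, 1239 and 1308 for KRT17. RBPMS had group means of 4.501 to 5.399 CPM over the groups of the overexpression and knockdown tables, controls included. These lie below the means of KO1 and KO2, in tables that were normalised separately. Their bearing on the RBPMS background of these groups was not tested.

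KRT14, the usual partner of KRT5, was low in every group. Its group means were 0.288 to 6.392 CPM in the knockout table, 1.579 to 1.836 in the overexpression table and 1.479 to 2.676 in the knockdown table. KRT20 had 0 counts in every library of the knockout table and group means of at most 0.05262 CPM elsewhere. Among the 17 hair keratins, only KRT81 reached 1 CPM, in the knockout and knockdown tables, and the highest group mean of any other was 0.2808, 0.395 and 0.5159 CPM in the knockout, overexpression and knockdown tables. The root sheath keratins stayed at or below 0.6102 CPM, the mean of KRT75 in siNC.

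**Figure D1:**
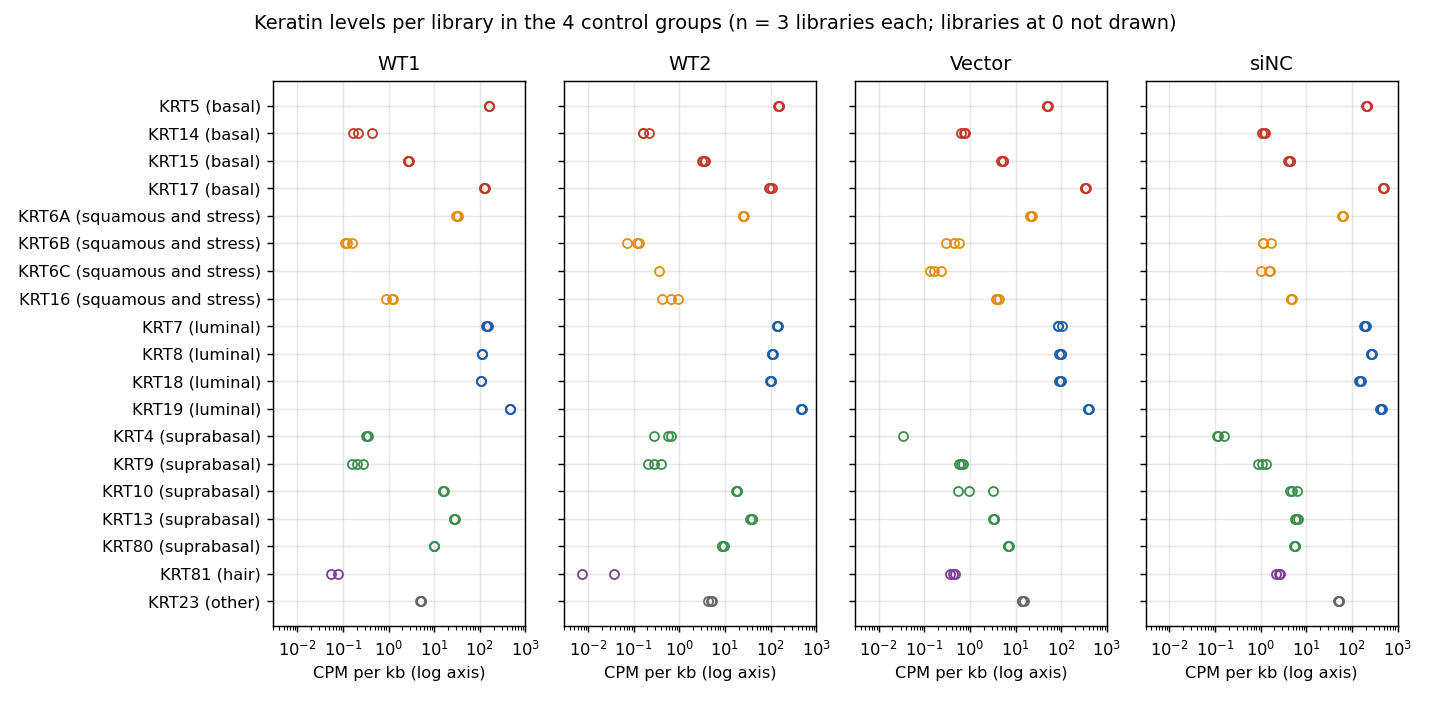
CPM per kilobase of the keratins that reached 1 CPM, in the libraries of the 4 control groups (points, log axis, libraries at 0 not drawn). KRT19, KRT5, KRT7, KRT17, KRT8 and KRT18 hold the top places in each group, and KRT14 lies far below its partner KRT5.

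Keratins differed from the controls in both directions in each knockout, with falls in both of KRT13 and KRT4, keratins of the differentiated cells of mucosal epithelia, and rises in both of KRT6A and KRT23. Each knockout is 1 clonal line in which RBPMS RNA was lowered but still present, so RBPMS, guide and clone cannot be told apart. Of 19 keratins that passed the filter on low counts in KO1 against WT1, 6 were higher, where 17.9% of all genes tested were called, and 5 were lower, where 18.2% were. In KO2 against WT2, 7 of 21 were higher and 6 lower, where the shares over all genes were 19.3% and 19.2%. A change of at least 2-fold (log2 of 1) was called for 5 keratins in KO1 and 6 in KO2, where the shares over all genes were 6.43% and 5.99%. The median log2 change of tested keratins was 0.0603 in KO1 and 0.166 in KO2, beside -0.00199 and -0.0161 over all genes tested.

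KRT13 (chr17:41500981-41505705, minus strand), a type I keratin of suprabasal cells in non-cornifying epithelia including urothelium, had 78.33, 81.27 and 82.56 CPM in the WT1 libraries and 12.42, 14.06 and 12.28 in KO1. It had 105.3, 112.3 and 112.7 CPM in WT2 and 5.373, 4.044 and 3.926 in KO2. All 6 knockout libraries lay below all 6 WT libraries. The log2 change was -2.65 (SE 0.07, edgeR adjusted p = 2.9e-09) in KO1 and -4.64 (SE 0.09, edgeR adjusted p = 2.22e-11) in KO2, or 6.27-fold and 24.9-fold lower. KRT4, the type II partner of KRT13, was scarce and fell with it. Its counts were 58, 57 and 78 in WT1 and 10, 4 and 16 in KO1, then 128, 119 and 66 in WT2 and 8, 0 and 0 in KO2. No knockout library reached the lowest WT library, and both falls passed the test. In each comparison KRT4 passed the filter on low counts only through the WT group, where it was higher. The log2 change was -2.57 (SE 0.48, edgeR adjusted p = 0.00153) in KO1. In KO2 (edgeR adjusted p = 0.000371) the mean of 0.0476 CPM lies below the 0.0534 CPM of 3 counts, so no fold is given.

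KRT1, the type II keratin of cornifying epidermis, had 15, 34 and 16 counts in WT1 and 0 in each KO1 library. It passed the filter on low counts only through WT1 (edgeR adjusted p = 0.00223). Against a floor of 3 counts per library, which covers counting error only, it was at least 6.74-fold lower in KO1. It had 9, 22 and 30 counts in WT2 and 0, 4 and 0 in KO2, where it did not pass the filter and was not tested. KRT10, the partner of KRT1 in epidermis, rose in KO1 from 34.08 ± 1.01 to 41.99 ± 2.62 CPM (log2 change 0.3, edgeR adjusted p = 0.00452), and in KO2 it was 38.27 ± 2.75 beside 38.79 ± 1.03 CPM (edgeR adjusted p = 0.797). KRT10 overlaps TMEM99 on the other strand, and whether the counting used strand is not stated.

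KRT80, a type II keratin of differentiating epithelium, moved in opposite directions. It had 42.75, 42.55 and 42.67 CPM in WT1 and 37.01, 35.44 and 34.24 in KO1, a fall of small size without overlap (log2 change -0.26, SE 0.06, edgeR adjusted p = 0.00468). In WT2 it had 36.99, 37.84 and 40.58 CPM and in KO2 66.48, 78.86 and 76.12, a rise without overlap (log2 change 0.94, SE 0.07, edgeR adjusted p = 4.38e-07). KRT9, a keratin of palm and sole epidermis, was at 1.045 CPM in KO1 beside 0.4846 in WT1 and did not pass (edgeR adjusted p = 0.0526). Over the 14 suprabasal keratins, 7 were tested in KO1, of which 1 rose and 4 fell, and 6 were tested in KO2, of which 1 rose and 2 fell.

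**Figure D2:**
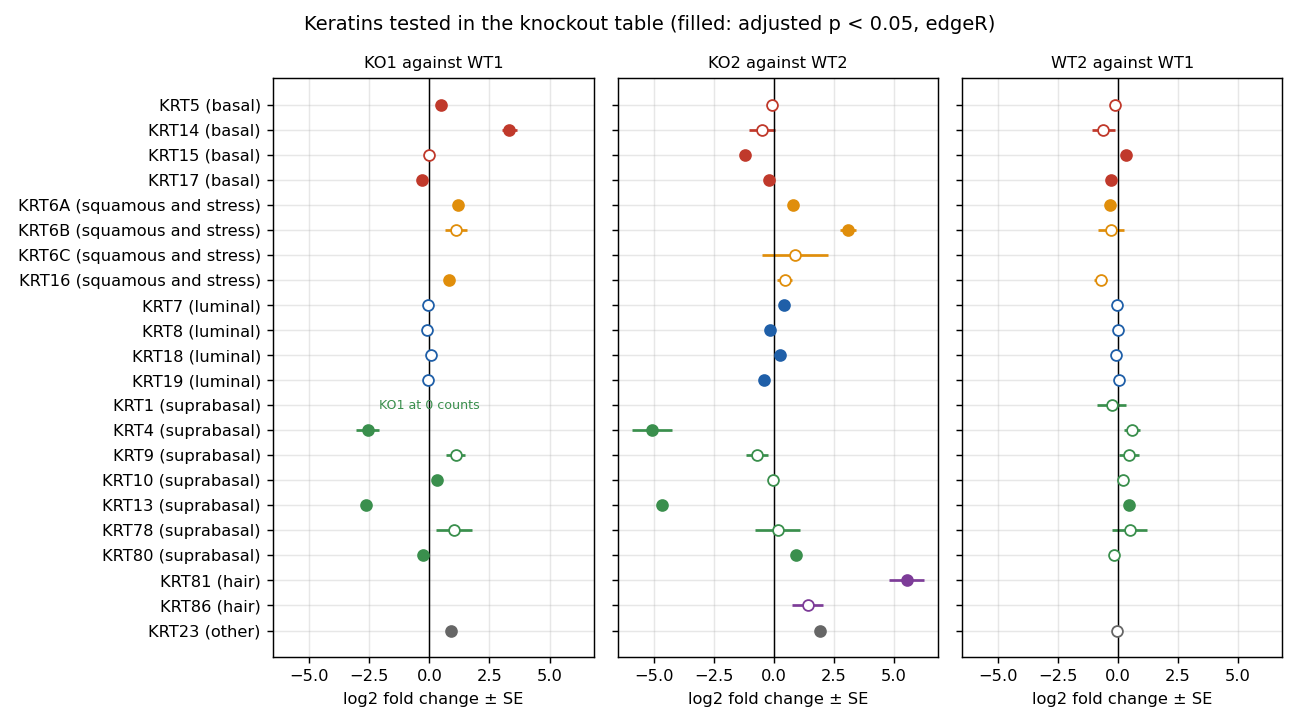
Log2 change of each tested keratin, with its standard error, in KO1 against WT1, KO2 against WT2 and WT2 against WT1, grouped by class, with filled points for an edgeR adjusted p under 0.05. KRT1, at 0 counts in KO1, is marked in words. KRT13 and KRT4 lie far to the left in both knockouts, KRT14 is raised in KO1 with a log2 change of 3.33 and KRT6B in KO2 with 3.08.

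The basal keratins differed between the knockouts. KRT5 had 698.2, 698.5 and 695.9 CPM in WT1 and 991.8, 926.2 and 971 in KO1, so that all KO1 libraries were higher (log2 change 0.46, SE 0.04, edgeR adjusted p = 1.15e-05). Its libraries had 627.1, 663.7 and 643 CPM in WT2 and 605.6, 623.6 and 625.5 in KO2, a difference that did not pass the test (log2 change -0.06, SE 0.03, edgeR adjusted p = 0.123). KRT14 had 0.4989, 0.3708 and 0.9931 CPM in WT1 and 5.977, 5.698 and 7.499 in KO1, a 10.1-fold rise without overlap (log2 change 3.33, SE 0.32, edgeR adjusted p = 1.85e-05). Its KO1 mean of 6.392 ± 0.969 CPM still lay far below the KRT5 mean of 963 ± 33.5 CPM. In WT2 and KO2 the KRT14 libraries overlapped, at 0.408 ± 0.0664 and 0.288 ± 0.14 CPM (edgeR adjusted p = 0.516).

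KRT15, a keratin of basal and stem-like cells, was level in KO1 and lower in KO2. Its WT2 libraries had 22.38, 25.94 and 25.05 CPM and its KO2 libraries 12.87, 9.623 and 9.651, without overlap (log2 change -1.19, SE 0.11, edgeR adjusted p = 5.33e-06). WT1 had 19.36 ± 0.295 and KO1 19.2 ± 0.818 CPM, with overlapping libraries (edgeR adjusted p = 0.908). KRT17, a basal keratin also induced by injury, had 322.5, 310.7 and 305.8 CPM in WT1 and 251.3, 243.8 and 251.5 in KO1, and 252.2, 267.7 and 238.2 in WT2 and 211.1, 231 and 227.9 in KO2. It was lower in both knockouts, with log2 changes of -0.33 (edgeR adjusted p = 0.000157) and -0.18 (edgeR adjusted p = 0.00986). The KO1 call was lost when all 6 WT libraries served as the control (log2 change -0.18, edgeR adjusted p = 0.092), and the KO2 call was lost without KO2 replicate 1 (log2 change -0.14, edgeR adjusted p = 0.0581). Altogether 2 of 4 basal keratins rose and 1 fell in KO1, while 2 of 4 fell in KO2 and 0 rose there (2 of 4 had an unadjusted p under 0.05, and KRT5 was at 618.2 ± 11 beside 644.6 ± 18.4 CPM).

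Among squamous and stress keratins, KRT6A had 95.26, 93.28 and 85.96 CPM in WT1 and 212.6, 202 and 216.3 in KO1, and 71.48, 76.56 and 71.85 in WT2 and 121.9, 129.1 and 136 in KO2. Every knockout library lay above every WT library. The log2 change was 1.2 (SE 0.05, edgeR adjusted p = 7.37e-08) in KO1 and 0.81 (SE 0.05, edgeR adjusted p = 1.18e-07) in KO2. KRT6B, a near-identical copy, had 0.1636, 0.2693 and 0.2968 CPM in WT2 and 2.285, 2.112 and 1.846 in KO2, an 8.47-fold rise (log2 change 3.08, SE 0.34, edgeR adjusted p = 1.69e-05). In WT1 it had 0.2982 ± 0.0589 CPM and in KO1 0.6392 ± 0.155, which did not pass (log2 change 1.1, edgeR adjusted p = 0.0806). With the counts of KRT6A, KRT6B and KRT6C summed, the log2 change was 1.2 in KO1 and 0.83 in KO2, close to that of KRT6A, which holds nearly all of these reads.

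KRT6C, the other near-identical copy, had 0 counts in 9 of the 12 libraries and 73, 66 and 49 counts in the other 3. KRT16, the type I partner of the KRT6 keratins, rose in KO1 from 2.756 ± 0.493 to 4.871 ± 0.356 CPM (log2 change 0.82, SE 0.19, edgeR adjusted p = 0.0057), and KO2 had 2.291 ± 0.648 CPM beside 1.676 ± 0.628 in WT2 (edgeR adjusted p = 0.297). The class share of summed keratin CPM went from 2.31% ± 0.093 to 5.08% ± 0.021 in KO1 and from 1.9% ± 0.021 to 3.47% ± 0.096 in KO2.

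Luminal keratins moved little in KO1, where 0 of 4 tested members passed the edgeR test and 1 had an unadjusted p under 0.05 (KRT8, log2 change -0.12, edgeR adjusted p = 0.0501). In KO2 all 4 passed, with changes of at most 1.35-fold and in both directions. KRT7, a type II keratin of glandular and transitional epithelium, had 570.8, 595.7 and 562.1 CPM in WT2 and 745.4, 784.2 and 810.1 in KO2 (log2 change 0.43, SE 0.04, edgeR adjusted p = 1.64e-06). KRT19 had 1066, 1171 and 1098 CPM in WT2 and 810.6, 837.8 and 843.5 in KO2 (log2 change -0.42, SE 0.04, edgeR adjusted p = 1.81e-06). Groups did not overlap for either gene, one rising and the other falling by about the same log2 amount. The partners KRT8 and KRT18 also parted, with KRT8 at 750.7, 779.5 and 758.5 CPM in WT2 and 672.4, 705.7 and 710 in KO2 (log2 change -0.14, edgeR adjusted p = 0.00381), and KRT18 at 317.2, 337 and 331.4 in WT2 and 373, 410 and 392.5 in KO2 (log2 change 0.25, edgeR adjusted p = 0.000382). KRT8 and KRT18 overlap on opposite strands, and reads of their overlap cannot be assigned if strand was not used.

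In WT1 the luminal libraries were 1090, 1090 and 1076 CPM for KRT19, 765.7, 767.6 and 760.6 for KRT8, 616.9, 588 and 565.6 for KRT7 and 344.7, 343.3 and 345.5 for KRT18. In KO1 they were 1048, 995 and 1075 for KRT19, 718.1, 678.3 and 721.9 for KRT8, 583.4, 555.8 and 584.1 for KRT7 and 356.8, 340.9 and 380.9 for KRT18. KRT7 and KRT18 overlapped between these groups. Summed over the class, luminal keratins were 2785 ± 34.7 CPM in WT1 and 2679 ± 98.7 in KO1, and 2779 ± 92.6 in WT2 and 2698 ± 84.8 in KO2. Their share of keratin CPM was 63% ± 0.35 in KO1 against 68.2% ± 0.058 in WT1, and 69.9% ± 0.12 in KO2 against 69.8% ± 0.1 in WT2.

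**Figure D3:**
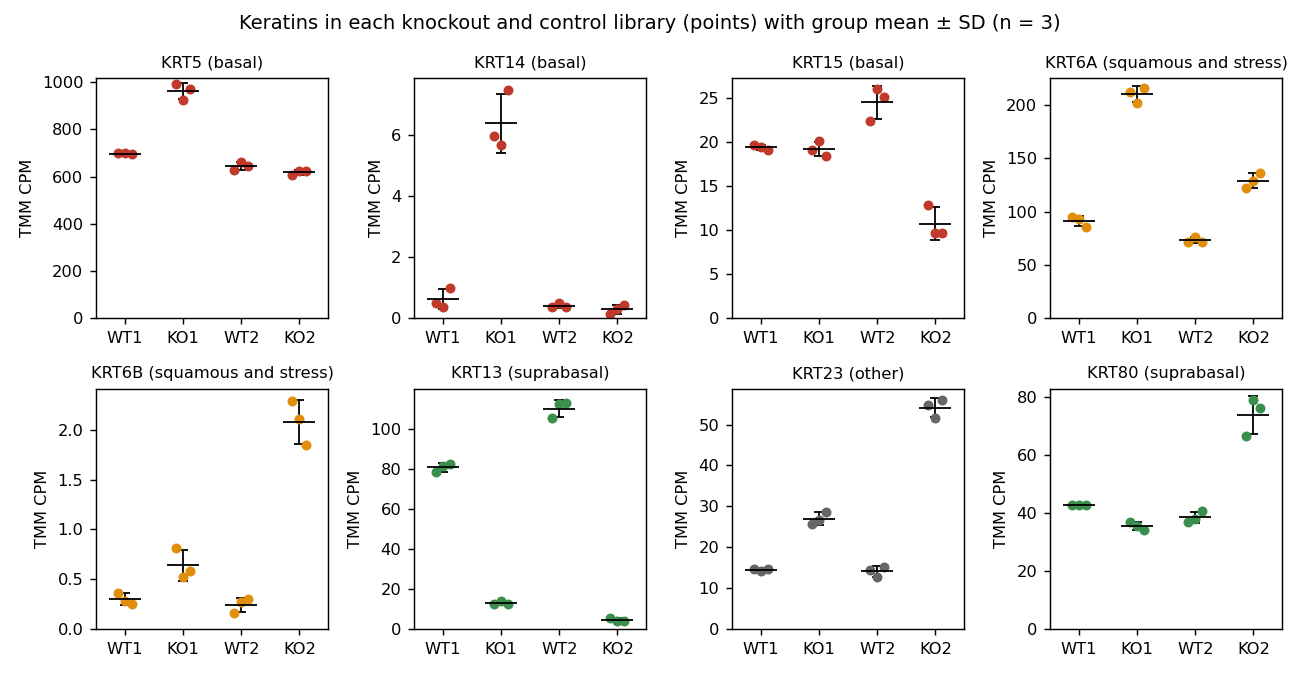
CPM of KRT5, KRT14, KRT15, KRT6A, KRT6B, KRT13, KRT23 and KRT80 in each library of the knockout table (linear axes from 0), with points for libraries and black marks for the group mean ± SD (n = 3). KRT13 is low in all 6 knockout libraries, KRT14 is high in KO1 alone with a mean of 6.392 CPM, and KRT80 is high in KO2 alone with a mean of 73.82 CPM.

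KRT23, a type I keratin outside these classes, had 14.66, 14.16 and 14.69 CPM in WT1 and 25.6, 26.58 and 28.67 in KO1, and 14.53, 12.66 and 15.12 in WT2 and 54.77, 51.54 and 56.09 in KO2. It was higher in all 6 knockout libraries, by a log2 change of 0.89 (SE 0.08, edgeR adjusted p = 8.79e-06) in KO1 and 1.93 (SE 0.07, edgeR adjusted p = 1.57e-09) in KO2. The hair keratin KRT81 reached a low level in KO2, with 78, 76 and 67 counts in KO2 against 0, 4 and 1 in WT2 (edgeR adjusted p = 5.43e-05). It passed the filter only through KO2, and its WT2 mean of 0.02865 CPM lies below the 0.047 CPM of 3 counts, so no fold is given. WT1 had 8, 0 and 7 counts of KRT81 and KO1 5, 0 and 0, and it did not pass the filter there. With the near-identical KRT81, KRT83 and KRT86 summed, the log2 change in KO2 was 3.61 (edgeR adjusted p = 1.45e-05). KRT86, tested beside it in KO2, had 0.2808 ± 0.0888 CPM against 0.1036 ± 0.0044 in WT2 (edgeR adjusted p = 0.101).

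Of the 18 keratins tested in both knockouts, 2 were higher in both (KRT6A and KRT23), 3 were lower in both (KRT13, KRT4 and KRT17) and 1 was called in opposite directions (KRT80). WT1 was set against KO1 and WT2 against KO2 because their labels share a number, which no label states to be a match, and the controls themselves differed. With all 6 WT libraries as the control, 12 keratins were called in KO1 and 15 in KO2, beside 11 and 13. In WT2 against WT1, with the same genotype label, KRT13 (log2 change 0.45, edgeR adjusted p = 0.000717) and KRT15 (0.34, 0.0461) were higher and KRT17 (-0.31, 0.00821) and KRT6A (-0.32, 0.0127) were lower. These were 2 higher and 2 lower of 19 tested, where 0.578% and 0.654% of all genes tested were called, and 0 changed by 2-fold or more, where 0.0873% of all genes did. The KRT15 call was lost with all libraries of the table in the fit (edgeR adjusted p = 0.148), without the filter on low counts (0.105) and in all fits that left out 1 library (0.103 to 0.208) but the one without WT2 replicate 1. The KRT6A call was lost without WT1 replicate 1, WT1 replicate 2, WT2 replicate 1 or WT2 replicate 3. For KRT17 the difference between controls was close to its change in KO1.

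A test of the difference between the knockout changes, (KO1 - WT1) - (KO2 - WT2), called 8 of 22 keratins higher, where 11.2% of all genes tested were called, and 6 lower, where 12.1% were. At least a 2-fold difference was called for 8 keratins, where 5.52% of all genes had one. Basal keratins were on the higher side, with KRT14 at 3.82 (SE 0.54, edgeR adjusted p = 6.44e-05), KRT15 at 1.18 (SE 0.14, edgeR adjusted p = 1.59e-05) and KRT5 at 0.53 (SE 0.05, edgeR adjusted p = 9.87e-07) on the log2 scale, and 0 of the 4 were called lower (all 4 had an unadjusted p under 0.05, KRT17 at -0.15 with an adjusted p of 0.115). KRT13, which fell less in KO1, differed by 1.98 (SE 0.12, edgeR adjusted p = 1.09e-08), and KRT80 by -1.2 (SE 0.09, edgeR adjusted p = 8.79e-08). Among luminal keratins KRT19 was on the higher side (0.36, edgeR adjusted p = 0.000161) and KRT7 (-0.48, edgeR adjusted p = 2.09e-05) and KRT18 (-0.19, edgeR adjusted p = 0.0394) on the lower. The KRT18 call was lost in 9 of 12 fits that left out 1 library (edgeR adjusted p = 0.0646 to 0.116) and without the filter (0.0923). The shared rises differed too, KRT6A by 0.39 (edgeR adjusted p = 0.00114) and KRT23 by -1.05 (edgeR adjusted p = 1.63e-06).

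Markers of other cell types also differed in the knockouts. LUM, a fibroblast gene, went from 3.731 ± 0.437 to 0.06078 ± 0.105 CPM in KO1 and from 4.535 ± 0.0711 to 0.5967 ± 0.0915 in KO2. The endothelial gene PECAM1 went from 0.6042 ± 0.0596 to 1.647 ± 0.325 and from 0.4863 ± 0.295 to 1.331 ± 0.173 CPM, and CD68 from 0.06527 ± 0.0271 to 1.227 ± 0.413 CPM in KO2. COL1A1, a collagen gene, was at 49.89 CPM in WT1 and 34.52 in KO1, and at 50.65 in WT2 and 49.73 in KO2. Of the 12 markers, 5 were tested in KO1 (1 higher and 2 lower, where 17.9% and 18.2% of all genes were called) and 4 in KO2 (2 higher and 1 lower, where 19.3% and 19.2% were). CDH5 stayed at or below 0.1412 CPM and COL1A2 at or below 0.0309 CPM in group means of the knockout table, and the part of such cells in the keratin changes was not tested. Mitochondrial genes took 7.38 to 7.84% of counts in WT2 and 6.05 to 6.71% in KO2, without overlap, and 7.35 to 7.94% in WT1 and 6.94 to 7.51% in KO1, and their part was not tested either.

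With ANKRD10 transcripts overexpressed, tested keratins differed from Vector by less than 2-fold. With ANKRD10-1, 5 of 19 tested keratins were higher (KRT5, KRT16, KRT8, KRT18 and KRT80), where 3.5% of all genes tested were. Lower were 0 by the edgeR test, as by DESeq2, where 2.81% of all genes were lower. No keratin beyond the 5 had an unadjusted p under 0.05. With ANKRD10-2, 7 of 19 were higher (KRT5, KRT17, KRT16, KRT7, KRT8, KRT18 and KRT80) and 2 lower (KRT13 and KRT23), where 10.7% and 9.25% of all genes were called. Changes of 2-fold or more were called for 0 keratins with either transcript, where 0.391% and 1.19% of all genes had one. The median log2 change of tested keratins was 0.0741 with ANKRD10-1 and 0.0488 with ANKRD10-2, beside -0.00354 and -0.00549 over all genes tested. Mitochondrial genes took 8.47 to 8.66% of counts in Vector, 7.39 to 8.68% with ANKRD10-1 and 7.59 to 7.75% with ANKRD10-2, and the part of this difference in the keratin changes was not tested.

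KRT5 had 212.8, 205.5 and 215.6 CPM in Vector, 248.2, 245.9 and 250.8 with ANKRD10-1 and 301.9, 276.2 and 279.7 with ANKRD10-2, 3 groups without overlap. Its log2 change from Vector was 0.23 (SE 0.04, edgeR adjusted p = 0.00247) with ANKRD10-1 and 0.44 (SE 0.05, edgeR adjusted p = 3.43e-05) with ANKRD10-2. KRT80 kept the same order, with 29.77, 29.29 and 30.52 CPM in Vector, 37.22, 36.73 and 37.02 with ANKRD10-1 and 47.49, 47.9 and 51.18 with ANKRD10-2. Its log2 change was 0.31 (SE 0.06, edgeR adjusted p = 0.00234) and 0.71 (SE 0.06, edgeR adjusted p = 1.55e-06), the largest called change of a keratin in this experiment against Vector.

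KRT17 had 851.8, 906.5 and 851.8 CPM in Vector, 866.4, 877.8 and 956 with ANKRD10-1 and 1132, 1017 and 1025 with ANKRD10-2. Only the ANKRD10-2 libraries stood above all Vector libraries (log2 change 0.28, edgeR adjusted p = 0.00169, beside 0.05 and 0.627 with ANKRD10-1). Of the luminal keratins, KRT8 had 666.6, 626.2 and 682.1 CPM in Vector, 770.5, 761.1 and 720.5 with ANKRD10-1 and 837, 741.2 and 762.5 with ANKRD10-2. Its partner KRT18 had 308.3, 289.3 and 313 CPM in Vector, 368.5, 354.7 and 349.7 with ANKRD10-1 and 378.8, 339.2 and 355.3 with ANKRD10-2. Both lay above Vector in all 6 overexpression libraries, with log2 changes of 0.19 and 0.24 with ANKRD10-1 and 0.25 and 0.24 with ANKRD10-2 (edgeR adjusted p between 0.00372 and 0.0199). The KRT8 call with ANKRD10-1 was lost without Vector replicate 1 or 2 or ANKRD10-1 replicate 1 or 2 (edgeR adjusted p = 0.0551 to 0.0952).

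KRT7 had 350.4, 340.5 and 419.9 CPM in Vector, 396.3, 414.7 and 402.7 with ANKRD10-1 and 512.1, 451.7 and 469.3 with ANKRD10-2, and only the last group was clear of Vector (log2 change 0.37, edgeR adjusted p = 0.0031). KRT19 had 909.6, 901.4 and 935.7 CPM in Vector, 932.1, 915.3 and 1044 with ANKRD10-1 and 1105, 921.9 and 968 with ANKRD10-2, overlapping in both comparisons (edgeR adjusted p = 0.444 and 0.162). KRT16 rose from 9.844 ± 0.606 CPM to 13.79 ± 2.1 with ANKRD10-1 and 14.87 ± 1.14 with ANKRD10-2. KRT13 fell with ANKRD10-2 from 9.635 ± 0.348 to 6.882 ± 0.902 CPM (log2 change -0.48, edgeR adjusted p = 0.00649) and KRT23 from 41.81 ± 2.39 to 31.8 ± 1.8 CPM (log2 change -0.39, edgeR adjusted p = 0.00101). Thus the 2 keratins that fell with ANKRD10-2 were not basal or luminal ones.

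Set against each other, ANKRD10-2 was above ANKRD10-1 for 5 of 19 tested keratins, where 4.15% of all genes were, and below it for 1, where 3.1% were. The 5 were KRT5 (log2 difference 0.2, edgeR adjusted p = 0.0185), KRT17 (0.23, 0.0129), KRT7 (0.24, 0.00879), KRT80 (0.4, 0.000157) and KRT10 (0.97, 0.00311), and the 1 was KRT23 (-0.4, 0.000365). A 2-fold difference was called for 0 keratins, where 0.359% of all genes had one. KRT10 was lost when the Vector libraries joined the fit (log2 difference 0.96, edgeR adjusted p = 0.154), and in Vector it had 1.148, 2.014 and 6.736 CPM, the third library being far above the others. Without ANKRD10-1 replicate 1 only 3 keratins were called, the calls of KRT5, KRT7 and KRT17 being lost. Without ANKRD10-1 replicate 2 the calls of KRT5 (edgeR adjusted p = 0.0894) and KRT17 (0.0838) were lost as well. These comparisons share the ANKRD10-1, ANKRD10-2 and Vector libraries.

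**Figure D4:**
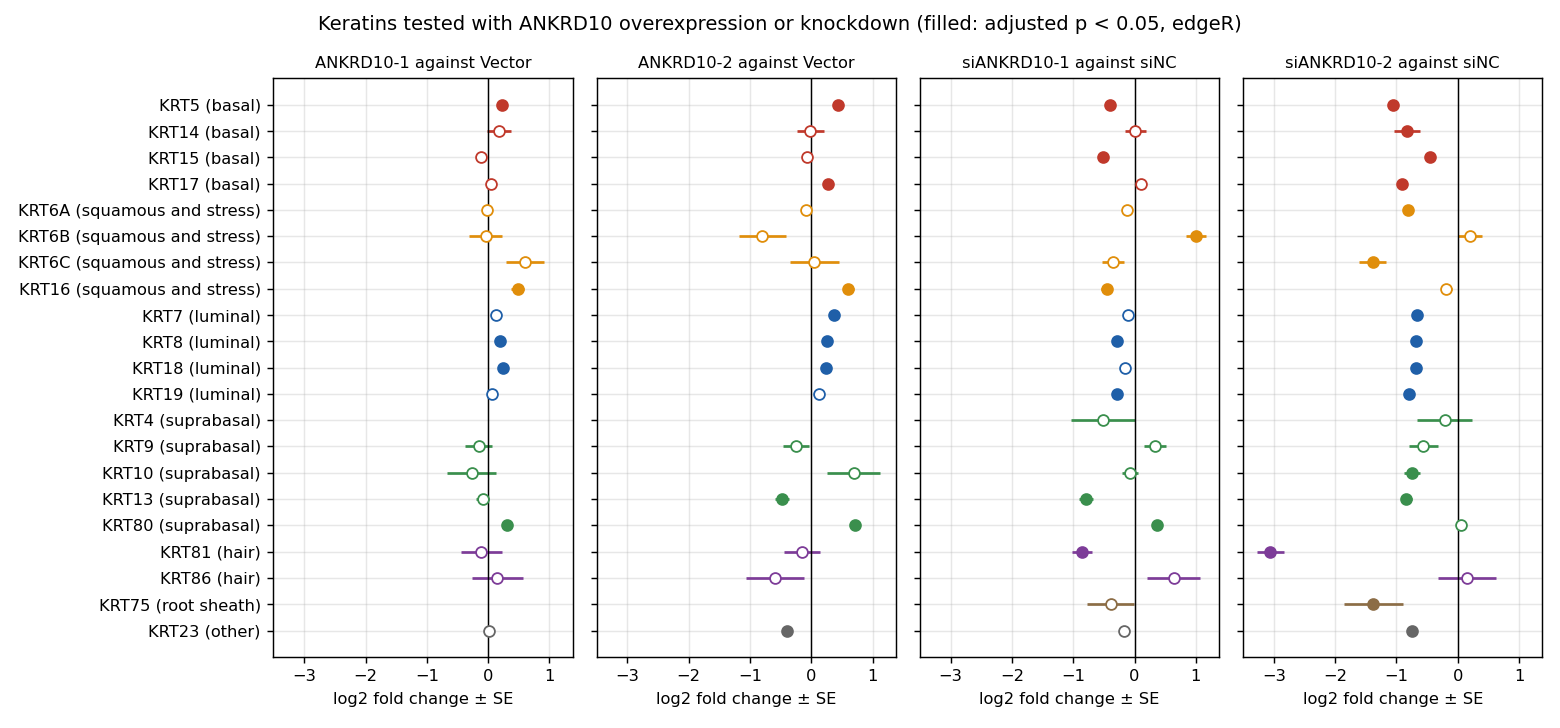
Log2 change of each tested keratin, with its standard error, for both ANKRD10 transcripts overexpressed against Vector and for both siRNAs against siNC, with filled points for an edgeR adjusted p under 0.05. Overexpression moves stay within 1 log2 unit, and with siANKRD10-2 the 4 basal and 4 luminal keratins lie left of 0.

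More keratins were called lower than higher against siNC with both siRNAs, most of all with siANKRD10-2. Group means of ANKRD10 RNA, given above, were close between the siRNAs. Effects of an siRNA on ANKRD10 and on other genes cannot be told apart here. With siANKRD10-2, 15 of 21 tested keratins were lower than in siNC, where 18.7% of all genes tested were. Higher were 0 by edgeR and 0 by DESeq2, where 17.6% of all genes were higher by edgeR, and 16 of the 21 had an unadjusted p under 0.05. The median log2 change of the tested keratins was -0.749 beside 0.00111 over all genes tested. With siANKRD10-1, 7 of 21 were lower and 2 higher, where 5.52% and 5.08% of all genes were, and the median log2 change was -0.165 beside 0.00351. A fall of at least 2-fold was called for 4 keratins with siANKRD10-2 (KRT5, KRT6C, KRT81 and KRT75), where 2.64% of all genes changed that much, and for 0 with siANKRD10-1, where 0.367% did. Keratin reads were 0.66 to 0.673% of all counts in siNC libraries, 0.579 to 0.595% with siANKRD10-1 and 0.387 to 0.403% with siANKRD10-2.

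All 4 basal keratins fell with siANKRD10-2. KRT5 had 873.1, 907 and 900.7 CPM in siNC, 678.5, 669.1 and 680.3 with siANKRD10-1 and 429.5, 424.8 and 428.6 with siANKRD10-2. The 3 groups were apart, with log2 changes of -0.4 (SE 0.05, edgeR adjusted p = 4.4e-05) and -1.06 (SE 0.05, edgeR adjusted p = 2.18e-14). KRT17 had 1196, 1239 and 1308 CPM in siNC, 1360, 1335 and 1341 with siANKRD10-1 and 678.8, 660.4 and 653 with siANKRD10-2. It was below siNC only with siANKRD10-2 (log2 change -0.91, SE 0.05, edgeR adjusted p = 1.08e-12), while the siANKRD10-1 libraries lay above siNC without passing the test (0.11, edgeR adjusted p = 0.205). KRT14 went from 2.653 ± 0.195 to 1.479 ± 0.259 CPM with siANKRD10-2 (log2 change -0.83, edgeR adjusted p = 0.00286). KRT15 fell with both siRNAs, from 28.29, 31.36 and 31.26 CPM to 20.55, 21.66 and 21.77 with siANKRD10-1 and to 21.59, 23.09 and 21.38 with siANKRD10-2 (log2 changes -0.51 and -0.46, edgeR adjusted p = 0.000148 and 1.06e-05).

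All 4 tested luminal keratins fell as well. KRT8 had 1808, 1818 and 1893 CPM in siNC, 1509, 1444 and 1553 with siANKRD10-1 and 1169, 1174 and 1103 with siANKRD10-2, and KRT19 had 981.5, 1001 and 1040, then 822.8, 796.8 and 850.4, then 598.4, 583.4 and 565.5. Both stepped down from siNC to siANKRD10-1 to siANKRD10-2 without overlap. Their log2 changes were -0.29 each with siANKRD10-1 (edgeR adjusted p = 0.0013 and 0.00138) and -0.68 and -0.79 with siANKRD10-2 (edgeR adjusted p = 1.43e-10 and 8.04e-12). KRT7 had 764.9, 795.6 and 824.9 CPM in siNC, 721.7, 695.4 and 788.2 with siANKRD10-1 and 506.8, 517.8 and 487 with siANKRD10-2. KRT18 had 460.6, 483.2 and 508.9 CPM in siNC, 437.3, 411 and 454.5 with siANKRD10-1 and 302.5, 306.7 and 295.6 with siANKRD10-2. Neither passed with siANKRD10-1 (edgeR adjusted p = 0.231 and 0.0877), and both fell with siANKRD10-2, by 0.66 and 0.68 on the log2 scale.

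Basal keratins took a share of keratin CPM of 28.6% ± 0.45 with siANKRD10-2 against 32.4% ± 0.21 in siNC, and the luminal share was 64.9% ± 0.57 against 61.5% ± 0.15. With siANKRD10-1 the shares were 34.6% ± 0.82 basal and 59% ± 0.92 luminal. The hair share was at most 0.0797% in any group of any table. Library ranges of the basal and luminal shares did not overlap between these 3 groups.

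**Figure D5:**
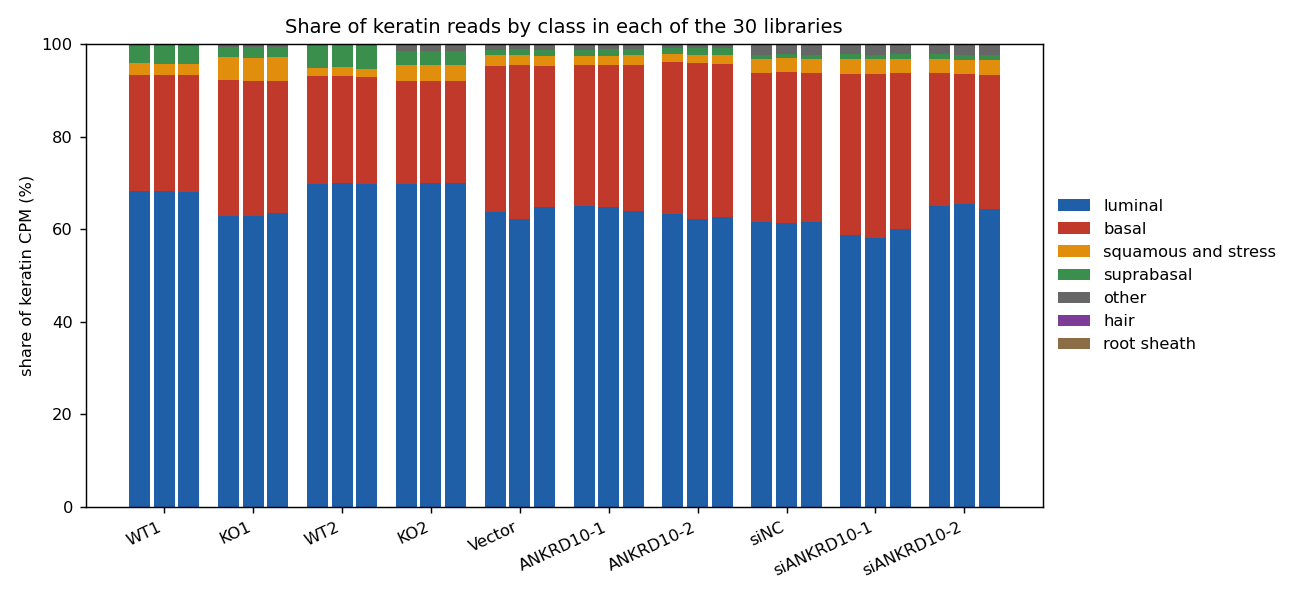
Share of summed keratin CPM (percent) taken by each keratin class, as 1 stacked bar for each of the 30 libraries, 3 per group. Group means of the luminal share run from 59 to 69.9% and of the basal share from 22.1 to 34.6%, and hair keratins, at most 0.0797%, are too few to see.

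Among hair keratins KRT81 was the 1 that changed. It had 4.927, 4.994 and 4.278 CPM in siNC, 3.103, 2.287 and 2.419 with siANKRD10-1 and 0.4789, 0.625 and 0.5828 with siANKRD10-2. Each step was free of overlap, with log2 changes of -0.86 (SE 0.16, edgeR adjusted p = 0.00173) and -3.06 (SE 0.22, edgeR adjusted p = 2.89e-11), and of -0.66 and -2.32 when KRT81, KRT83 and KRT86 were summed. KRT75, a keratin of the hair companion layer, had 17, 17 and 25 counts in siNC, 15, 16 and 13 with siANKRD10-1 and 11, 3 and 7 with siANKRD10-2. Against siANKRD10-2 it passed the filter on low counts only through siNC. The fall with siANKRD10-2 (log2 change -1.38, SE 0.48, edgeR adjusted p = 0.0235) did not pass in DESeq2 (adjusted p = 0.0875), nor without siNC replicate 3 (0.114), siANKRD10-2 replicate 2 (0.124) or siANKRD10-2 replicate 3 (0.0818).

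The squamous and stress keratins did not all move the same way. KRT6A went from 183.6 ± 3.21 CPM in siNC to 169 ± 4.09 with siANKRD10-1 (edgeR adjusted p = 0.169) and fell to 104.9 ± 2.84 with siANKRD10-2 (log2 change -0.81, edgeR adjusted p = 6.29e-12). KRT6C had 4.623, 4.343 and 2.957 CPM in siNC, 3.135, 3.367 and 2.827 with siANKRD10-1 and 1.95, 1.562 and 1.074 with siANKRD10-2 (log2 change -1.39, edgeR adjusted p = 1.42e-05). KRT6B had 2.585, 2.544 and 3.932 CPM in siNC, 5.573, 6.003 and 6.471 with siANKRD10-1 and 3.558, 4.062 and 2.822 with siANKRD10-2, a 1.99-fold rise with siANKRD10-1 alone (edgeR adjusted p = 0.000625). With the 3 KRT6 genes summed, siANKRD10-1 gave a log2 change of -0.1 (edgeR adjusted p = 0.237), and no rise was seen on that scale. KRT16 was 11.65 ± 0.402 CPM in siNC, 8.545 ± 0.47 with siANKRD10-1 (log2 change -0.45, edgeR adjusted p = 0.00479) and 10.24 ± 0.418 with siANKRD10-2 (edgeR adjusted p = 0.128).

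KRT13 fell with both siRNAs, from 16.85, 17.53 and 19.12 CPM in siNC to 11.59, 8.354 and 10.93 with siANKRD10-1 and 10.06, 10.49 and 9.324 with siANKRD10-2 (log2 changes -0.79 and -0.84, edgeR adjusted p = 9.27e-05 and 3.99e-08). KRT10 fell from 10.93 ± 1.98 to 6.471 ± 1.09 CPM with siANKRD10-2 (log2 change -0.75, edgeR adjusted p = 5.35e-05). KRT9 was at 2.489 CPM in siNC and 1.67 with siANKRD10-2 (edgeR adjusted p = 0.052). KRT23 fell from 140, 147.6 and 152.5 CPM to 87.13, 86.91 and 87.14 with siANKRD10-2 (log2 change -0.75, edgeR adjusted p = 3.35e-11) and had 128, 135 and 129.4 with siANKRD10-1 (edgeR adjusted p = 0.066). KRT80 stood apart, rising with siANKRD10-1 from 24.41 ± 0.808 to 31.57 ± 0.218 CPM (log2 change 0.37, edgeR adjusted p = 0.00124) and standing at 25.29 ± 1.08 with siANKRD10-2 (edgeR adjusted p = 0.611).

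Between the siRNAs, siANKRD10-2 was lower than siANKRD10-1 for 15 of 21 tested keratins, where 18.8% of all genes were, and higher for 1, KRT16, where 18.2% were. A 2-fold difference was called for 3 keratins, KRT17 (log2 difference -1.01, edgeR adjusted p = 7.27e-13), KRT6C (-1.03, 0.000621) and KRT81 (-2.2, 5.57e-07), where 2.73% of all genes had one. KRT5 differed by -0.66 (edgeR adjusted p = 7.34e-10), KRT7 by -0.54, KRT18 by -0.52, KRT19 by -0.49 and KRT8 by -0.38. The KRT16 difference (0.27, edgeR adjusted p = 0.0417) did not pass in DESeq2 (0.121) or without the filter on low counts (edgeR adjusted p = 0.0822). It was also lost in all fits that left out 1 library (edgeR adjusted p = 0.053 to 0.16) but the one without siANKRD10-1 replicate 3. These comparisons share the knockdown libraries. Mitochondrial genes took 12 to 13.8% of counts in siNC, 11.9 to 13% with siANKRD10-1 and 8.92 to 10.5% with siANKRD10-2, and the part of this shift in the keratin changes was not tested. MYH11, a smooth muscle gene, fell from 7.801 ± 0.5 to 3.655 ± 0.497 CPM with siANKRD10-2, while the muscle gene DES was at or below 0.0637 CPM in group means of that table, and the part of such cells was not tested.

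The genes that hold keratin filaments at desmosomes and hemidesmosomes showed no single direction in the knockouts. Of 22 such linkers, 19 were tested in each comparison. In KO1 6 were higher and 4 lower, where 17.9% and 18.2% of all genes were called, and in KO2 7 and 7, where 19.3% and 19.2% were. With ANKRD10-2 overexpression 7 were higher and 0 lower, where 10.7% and 9.25% of all genes were. With siANKRD10-1 1 was higher and 5 lower, where 5.08% and 5.52% were, and with siANKRD10-2 6 and 8, where 17.6% and 18.7% were. ANKRD10-1 overexpression gave 0 of 19 by edgeR, with 6 at an unadjusted p under 0.05. PKP1, a plakophilin of desmosomes, fell from 15.25 ± 0.978 to 6.18 ± 0.905 CPM in KO2 (log2 change -1.31, edgeR adjusted p = 4.51e-06) and rose from 20.85 ± 0.891 to 28.03 ± 0.825 in KO1 (0.43, edgeR adjusted p = 0.000775).

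Among other intermediate filament genes, VIM, the filament of mesenchymal cells, rose from 4.477 ± 0.375 to 70.71 ± 6.35 CPM in KO1 (log2 change 3.98, SE 0.09, edgeR adjusted p = 2.81e-09) and from 4.517 ± 0.72 to 45.93 ± 1.4 in KO2 (3.35, SE 0.1, edgeR adjusted p = 1.86e-10). It also rose with ANKRD10-2 overexpression, from 27.08 ± 0.582 to 66.07 ± 4.45 CPM (log2 change 1.29, edgeR adjusted p = 5.22e-09). The neurofilament NEFL rose in both knockouts, by log2 changes of 1.44 (edgeR adjusted p = 0.000618) and 1.17 (edgeR adjusted p = 0.00187). Over the 15 such genes, 10 were tested in each knockout, of which 4 were higher and 4 lower in KO1 (17.9% and 18.2% of all genes) and 4 higher and 2 lower in KO2 (19.3% and 19.2%). With ANKRD10-1 2 of 11 were higher and 1 lower (3.5% and 2.81%), and with ANKRD10-2 6 of 11 were higher and 3 lower (10.7% and 9.25%). With siANKRD10-1 2 of 10 were higher and 1 lower (5.08% and 5.52%), and with siANKRD10-2 5 of 10 were higher and 2 lower (17.6% and 18.7%).

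Of 18 regulators of basal and luminal keratins, 4 were higher and 8 lower in KO1 (17.9% and 18.2% of all genes), 5 higher and 6 lower in KO2 (19.3% and 19.2%), and 2 higher and 6 lower with siANKRD10-2 (17.6% and 18.7%). Of the 17 tested with overexpression, 0 were higher and 1 lower with ANKRD10-1 (3.5% and 2.81%, with 4 at an unadjusted p under 0.05), and 7 were higher and 3 lower with ANKRD10-2 (10.7% and 9.25%). With siANKRD10-1 1 of 18 was higher and 6 were lower (5.08% and 5.52%). GATA3, a luminal transcription factor, fell from 55.91 ± 1.78 to 21.92 ± 1.98 CPM in KO1 (log2 change -1.35, edgeR adjusted p = 3.47e-07). In KO2 the larger changes were in SOX2, which fell from 245.5 ± 1.1 to 80.88 ± 3.76 CPM (-1.61, edgeR adjusted p = 7.98e-11), and SOX9, which rose from 21.28 ± 1.22 to 60.17 ± 8.7 CPM (1.5, edgeR adjusted p = 1.02e-07). GRHL3 fell with both siRNAs, from 1.049 ± 0.429 to 0.3371 ± 0.0726 and 0.4114 ± 0.267 CPM (-1.63 and -1.32, edgeR adjusted p = 0.011 and 0.0166).

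Genes of epithelial identity, among them EPCAM and CDH1, were counted in the same way by edgeR, beside the shares of all genes called. The list also holds GRHL2, ESRP1, CLDN4 and the keratins KRT5, KRT7, KRT8, KRT18 and KRT19. Its counts thus repeat in part the keratin results given above and are not independent of them. Of the 10 listed, 3 were higher and 2 lower in KO1 (17.9% and 18.2% of all genes), and 3 higher and 3 lower in KO2 (19.3% and 19.2%). With ANKRD10-1 4 were higher and 0 lower (3.5% and 2.81%), and with ANKRD10-2 6 higher and 0 lower (10.7% and 9.25%). With siANKRD10-1 0 were higher and 5 lower (5.08% and 5.52%), and with siANKRD10-2 0 higher and 7 lower (17.6% and 18.7%). Of the 12 markers of other cell types, 1 of 7 tested was lower with each overexpressed transcript, where 2.81% and 9.25% of all genes were. Among those tested with the siRNAs, 0 of 6 passed with siANKRD10-1 by edgeR (3 had an unadjusted p under 0.05), and with siANKRD10-2 1 of 5 was higher and 3 were lower, where 17.6% and 18.7% of all genes were. Their part in the keratin changes was not tested.

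Over all comparisons 23 of the 55 keratins passed the filter somewhere and 21 were called at least once, the exceptions being KRT78 and KRT86. The 32 keratins never tested were 15 of the 17 hair keratins, 8 of the 9 root sheath keratins, 7 suprabasal keratins, KRT20 and KRT222. KRT5, measured in all tables, gives the range of outcomes for a basal keratin: log2 changes of 0.46 in KO1, -0.06 in KO2, 0.23 and 0.44 with ANKRD10-1 and ANKRD10-2, and -0.4 and -1.06 with siANKRD10-1 and siANKRD10-2. KRT8 gives it for a luminal one: -0.12, -0.14, 0.19, 0.25, -0.29 and -0.68 in the same order. KRT13, low in all but the WT groups, had -2.65, -4.64, -0.09, -0.48, -0.79 and -0.84. Reads on processed copies of KRT8 were 0.615 to 1.13% of the parent's in the knockout table, 3.05 to 4.29% in the overexpression table and 1.19 to 2.32% in the knockdown table.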

How the data were processed

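RNA was sequenced from poly(A) stranded libraries of 30 samples. Per the labels and the submitters' processing notes, reads were trimmed with Trimmomatic 0.36 and counted on GRCh38 with featureCounts of Subread 1.5.1, whereas the study's text names HISAT2 as the aligner and StringTie for expression levels, so the counting tool is not settled. The authors deposited 3 tables of raw counts per gene, which keep no transcript or allele information. Reads shared by near-identical copies can be split between genes in such counts, and the use of strand in counting is not given in the sources used here. Of 60612 gene identifiers in the knockout table, 60401 were matched to symbols.

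Groups were taken from the labels. Genes were filtered with filterByExpr (minimum count 10, minimum total 15) and tested with edgeR 4.0.16 in R 4.3.3 (quasi-likelihood test, two-sided, TMM normalisation, Benjamini-Hochberg adjustment over all genes tested, threshold 0.05), with only the libraries of both groups in each of 10 comparisons. The test of the difference between knockouts used all 12 knockout libraries. Levels are TMM-scaled CPM over a table, divided by gene length in kilobases where genes are ranked per kilobase. Class shares are of summed CPM, not divided by length. A count of 0 was bounded by a floor of 3 counts per library, which covers counting error only. Scripts were tested on simulated counts.

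Keratins with a group mean of at least 1 CPM were named for that table, lower ones only where they passed the test, and genes of other lists only with a called log2 change of at least 1, apart from RBPMS and ANKRD10, the lists' lineage markers and PKP1 in KO1, which was named after its values were seen. The members and gene lists were chosen with earlier results of these data known. Alternatives were DESeq2 1.42.0, RLE normalisation, no filter, near-identical copies summed, other sets of libraries in the fit, a replicate block, a 2-fold call rule and leaving out each library. Same-numbered libraries did not deviate together (correlations of -0.04 to 0.08), so the numbers were not taken as pairs.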

Additional observations from a re-analysis of the deposited data

Results flagged for a closer look

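The changes of 14 keratins in KO1 and in KO2 differed by an interaction test over the 12 knockout libraries (edgeR, adjusted over all genes tested). As KO1 change minus KO2 change on the log2 scale, the differences among basal keratins were 0.53 for KRT5, 3.82 for KRT14 and 1.18 for KRT15, all rising or staying level in KO1 and staying level or falling in KO2.

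For the squamous keratins they were 0.39 for KRT6A and -1.98 for KRT6B, and the KRT6B value turned positive when its near-identical copies were summed. Luminal keratins differed by less, with -0.48 for KRT7, -0.19 for KRT18 and 0.36 for KRT19.

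Suprabasal keratins gave 1.98 for KRT13, 1.79 for KRT9, 0.32 for KRT10 and -1.2 for KRT80. KRT9 had group means of 0.4155 to 1.045 CPM in the knockout table, and its call was lost in 5 of 12 fits that left out 1 library. The KRT18 call was lost in 9 of these 12. KRT23 differed by -1.05. The value of -7.01 for KRT81 rests on counts of at most 5 in KO1, 8 in WT1 and 4 in WT2 and is not a measure of size. Each knockout is 1 clonal line with its own guide, so guide and clone cannot be told apart in these differences.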

How the results depend on the processing

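Of 71 counts of called keratins recomputed under other settings with all libraries kept, 61 were within 1.5 times the reported count. The other 10 were those with a 2-fold call rule, which left 5 in KO1, 6 in KO2, 0 in WT2 against WT1, 0 with ANKRD10-1, 0 with ANKRD10-2, 0 between these transcripts, 0 with siANKRD10-1, 4 with siANKRD10-2, 3 between the siRNAs and 8 in the difference between knockouts. Leaving out 1 library gave 11 to 12 calls in KO1, 12 to 14 in KO2, 2 to 3 in WT2 against WT1, 4 to 7 with ANKRD10-1, 9 to 10 with ANKRD10-2, 3 to 7 between the transcripts, 9 to 10 with siANKRD10-1, 14 to 16 with siANKRD10-2, 15 to 16 between the siRNAs and 12 to 15 in the difference between knockouts. WT2 against WT1 kept 2 calls without WT1 replicate 1, WT1 replicate 2 or WT2 replicate 3.

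The replicate block gave 12, 13, 3, 5, 10, 7, 11, 16, 15 and 14 calls in the same order, and it ended the calls of KRT15 in WT2 against WT1 (log2 difference 0.34, adjusted p = 0.0833) and of KRT16 between the siRNAs (0.27, 0.0617) by edgeR. Of 622 values of single keratins, 609 kept direction and call, 11 lost the call and 2 reversed, both for KRT6B with its copies summed: -0.1 with siANKRD10-1 and 0.37 in the difference between knockouts. Without a filter, the calls of KRT9 (1.8, edgeR adjusted p = 0.0534) and KRT18 (-0.18, 0.0923) in the difference between knockouts were lost. With 1 library left out, 41 of 696 values lost the call and 0 reversed, among them KRT8 with ANKRD10-1 (edgeR adjusted p of 0.0551 to 0.0952). Most hair and root sheath keratins had too few counts to test in any table, the deepest one included.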
